A study of Mus musculus with 44 samples.

Results

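The genes described here are 8 members of the Slc16 family of monocarboxylate transporters and Bsg, which encodes basigin, a membrane chaperone of Slc16a1. The transporters are Slc16a1, Slc16a4, Slc16a7, Slc16a9, Slc16a10, Slc16a12, Slc16a13 and Slc16a14. Together with Bsg they are 9 of the 12874 genes tested in mouse kidney. All 9 reached the mean of 1 TPM needed for testing. TPM is a transcript abundance scaled to the same total in every library, summed here over the transcripts of a gene. The set was chosen by the rhythm of Slc16a1 in these same libraries, which was strong in wild type and lost in knockout kidneys, and by kinship with that gene. The rhythm and level of Slc16a1 are therefore given as a description with no test, and the question put to the 8 relatives was whether their rhythm or level differed too.

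Polyadenylated RNA was measured in kidneys of 129SV mice aged 8 to 12 weeks, all on night-restricted feeding. The WT group carried functional Bmal1 (gene symbol Arntl) and the KO group carried a knockout of it, named in the series' design text as Bmal -/-. How the allele was made and how many animals gave each library are not given in the sources used here. Kidneys were taken at zeitgeber times (ZT, hours of the daily schedule) 0, 4, 8, 12, 16 and 20, with 2 libraries, A and B, for each genotype and time, so 12 WT and 12 KO libraries in all. Where labels do not say that A and B are separate animals, p-values measure only the spread between these libraries. The series also holds 20 libraries of chromatin contacts (4C-seq), whose baits are not at these genes and which are not used here.

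Monocarboxylate transporters of the Slc16 family carry small acids such as lactate, pyruvate and ketone bodies across the plasma membrane, in the best known members together with a proton. Slc16a1 (MCT1) reaches the membrane mainly with basigin, while Slc16a7 (MCT2) pairs mainly with embigin. Other members have other cargo: Slc16a10 (TAT1) carries aromatic amino acids and sits in the basolateral membrane of the proximal tubule, Slc16a12 carries creatine, Slc16a9 is linked to carnitine efflux, and Slc16a4 and Slc16a14 have no well settled cargo. BMAL1 pairs with CLOCK and binds the E-box CACGTG in the DNA of its target genes, which drives daily rhythms of transcription in most tissues.

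Promoters of Slc16a1 and Slc16a10 are shown because these 2 genes had the largest WT rhythms among the members with a peak close to ZT0. Both come from RefSeq on GRCm38.p6, run 5′ to 3′ on the gene's strand and end before the first base of the gene as RefSeq annotates it, so that 234 of the 250 bases searched are shown for Slc16a10 and all 250 for Slc16a1. Slc16a1 is at chr3:104638414-104638663 (plus strand) and Slc16a10 at chr10:40142271-40142504 (minus strand). Capitals mark the E-box CACGTG.
Slc16a1: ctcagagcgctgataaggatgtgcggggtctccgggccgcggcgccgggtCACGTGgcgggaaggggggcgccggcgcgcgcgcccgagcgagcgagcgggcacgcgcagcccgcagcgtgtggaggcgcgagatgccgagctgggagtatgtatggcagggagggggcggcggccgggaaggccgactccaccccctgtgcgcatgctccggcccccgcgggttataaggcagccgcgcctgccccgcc
Slc16a10: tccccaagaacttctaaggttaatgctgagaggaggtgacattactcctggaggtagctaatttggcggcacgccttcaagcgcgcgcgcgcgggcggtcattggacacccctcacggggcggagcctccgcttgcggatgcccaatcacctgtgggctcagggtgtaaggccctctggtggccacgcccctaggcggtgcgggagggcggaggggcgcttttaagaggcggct
Each search window held the 250 bases before a transcript start, and part of a window can lie inside the gene where its annotation starts earlier. The window held 1 E-box in Slc16a1, at positions -200 to -195 counted from that start, and none in Slc16a10. Promoter sequences were matched for 6 of the 9 members, and 2 of these 6 windows held CACGTG (Slc16a1 and Slc16a12), against 6.02% of all 32851 windows of the same length. The E-box variant CACGTT was in none of the 6 and in 3.85% of all windows, and the ROR core TAGGTCA was in none of the 6 and in 2.23%. The D-box, TTATGTAA or TTACGTAA, was found in Slc16a12 and in 0.931% of all windows. The Slc16a12 match, at positions -76 to -69, lies inside the gene as RefSeq annotates it. All motifs were searched on both strands, and a match describes these letters only.

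Each library's TPM sums to between 999999 and 1000001, so the sequencing depth is unknown, and 12398 to 12911 genes reached 1 TPM. As a check of the labels, Arntl transcripts ranged from 0.295 TPM at ZT12 to 12.9 TPM at ZT0 in WT. They stayed between 4.19 and 6.28 TPM in all 12 KO libraries. At ZT4 the WT libraries held 6.16 and 4.71 TPM, so Arntl could not tell the genotypes apart at that time. The library labelled KO ZT4 A stood apart: its Cry1 level was 1.03 TPM against 11.5 to 17.8 in the other 11 KO libraries, and its Nr1d1 level was 23.8 TPM against 1.23 to 3.46, both within the range of the WT libraries at ZT4. The library labelled KO ZT12 A held almost no Y-linked transcripts, with Eif2s3y at 0.288 TPM against 25.3 to 38.8 in every other library. The labels give no sex. Acsm3, Kap, Slco1a1 and Cyp2j13, 4 genes known to be higher in male mouse kidney and chosen after their values were seen, were all lower in KO, with Slco1a1 at 48.3 to 157 TPM in WT and 0.326 to 75.2 in KO. Markers of proximal tubule summed to 1988 to 2381 TPM in WT and 1931 to 2597 in KO, with Slc22a6 (-0.92 log2 units) and Slc22a8 (-0.24) lower, Slc5a2 (0.45) higher and the other 3 not passing. Of 3 thick ascending limb markers Umod (-0.36) was lower and Slc12a1 (0.72) and Cldn16 (0.53) were higher (sum 1147 to 1745 TPM in WT and 1192 to 1445 in KO). All 4 collecting duct, all 3 distal convoluted tubule and all 3 podocyte markers were higher in KO, where 50.9% of all genes were. The collecting duct sum was 150 to 263 TPM in WT and 194 to 469 in KO. After median-of-ratios scaling 2 of the 3 distal convoluted tubule markers were higher. Endothelium markers gave 1 higher of 3, leukocyte 1 lower of 3, red cell 2 higher and 1 lower of 4, and liver 1 higher and 1 lower of 3. After median-of-ratios scaling red cell markers gave 0 higher and 1 lower of 4, and leukocyte 2 lower of 3. Proximal tubule markers gave 1 higher and 3 lower of 6 there. The part of these differences in the results below was not tested, and in bulk tissue fewer cells of a type and less RNA per cell cannot be told apart. TPM of all genes together was shifted between genotypes (median 0.148 log2 units higher in KO), and the share of TPM from mitochondrially encoded genes was 40.5% ± 1.31 in WT and 37.6% ± 1.97 in KO (SD, n = 12).

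In WT kidney Bsg was the most abundant of the set, at 328 TPM ± 16.2 (SD over 12 libraries and all times), apart from every transporter by more than 1 SD. Among the transporters the mean WT level ran from Slc16a9 at 49 TPM through Slc16a4 at 40.7, Slc16a12 at 32, Slc16a7 at 31.4, Slc16a13 at 23.2, Slc16a14 at 18 and Slc16a1 at 10.6 to Slc16a10 at 9.26. For neighbours in this order the ranges of the mean ± 1 SD overlapped. These SDs include the change over the day and are not errors of the means, and single steps of the order were not tested. In KO Slc16a1 stood at 21.1 TPM ± 2.96 (SD, n = 12), next to Slc16a13 at 21.2 TPM ± 6.09 and above Slc16a10 at 12.8 TPM ± 2.01 and Slc16a14 at 12.5 TPM ± 4.76.

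Slc16a1 (ENSMUSG00000032902, GRCm38 chromosome 3, 104638668 to 104658462, plus strand) carries lactate, pyruvate and ketone bodies. In WT its transcript was high at ZT20, ZT0 and ZT4 and low from ZT8 to ZT16. Its 2 WT libraries held 18.7 and 16.4 TPM at ZT0, 17.2 and 13.1 at ZT4, 6.34 and 4.55 at ZT8, 3.97 and 4.15 at ZT12, 6.5 and 6.44 at ZT16, and 14.6 and 15.3 at ZT20. The KO libraries held 17.7 and 18.3 TPM at ZT0, 18.4 and 23.9 at ZT4, 20.2 and 24.4 at ZT8, 18.2 and 23.8 at ZT12, 20.4 and 26.7 at ZT16, and 21.4 and 19.7 at ZT20. The KO time means thus lay above the highest WT time mean, 17.5 TPM, at every time, and the low WT values from ZT8 to ZT16 had no counterpart in KO.

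The ratio of the KO to the WT mean of Slc16a1 was 1.03 at ZT0, where the genotypes overlapped, and 5.17 at ZT12. At the other 5 times both KO libraries lay above both WT libraries, and 11 of the 12 WT libraries were below the lowest KO library. The highest WT time mean was 4.32 times the lowest, against 1.31 times in KO. The fitted 24-hour curve fell from peak to trough by 2.28 log2 units in WT (SE 0.16, peak at 23.8 h) and by 0.23 in KO (SE 0.16). Averaged over the times, Slc16a1 was 1.20 log2 units higher in KO (SE 0.22) on the log2(TPM + 0.1) scale, 1.26 without the library labelled KO ZT4 A and 1.22 without both libraries that stand apart. The 18.4 TPM of the library labelled KO ZT4 A lies near the WT values at ZT4 as well as near the lower KO values.

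**Figure D1:**
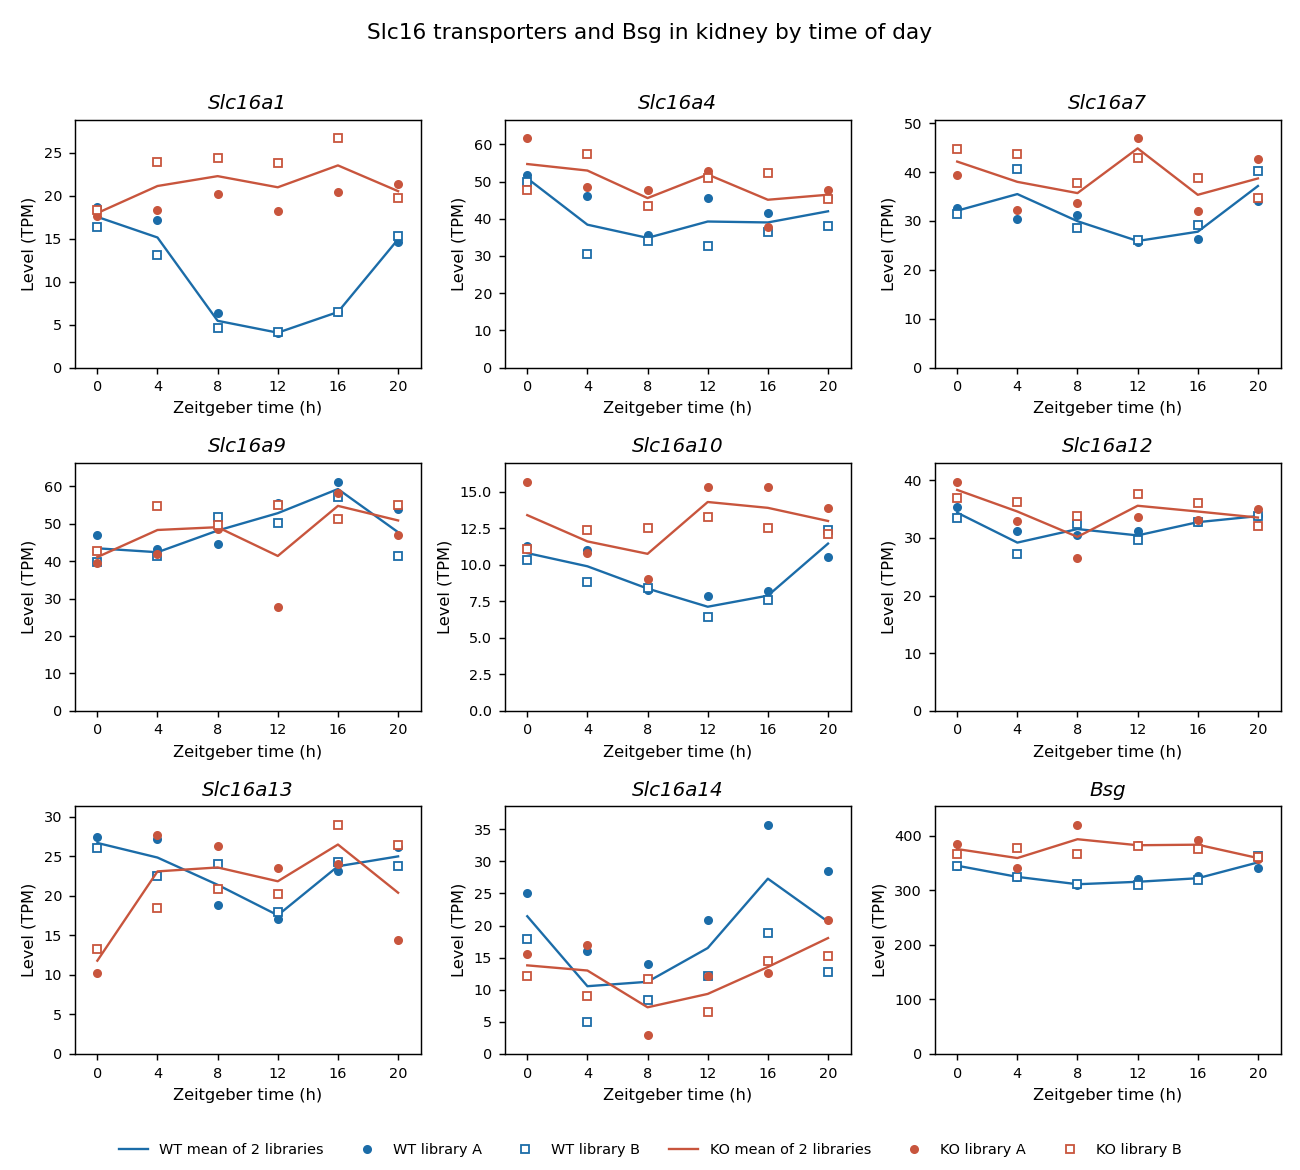
Level in TPM (vertical axes, starting at 0) of the 9 genes against zeitgeber time in hours, with a filled circle for library A, an open square for library B and a line through the mean of the 2 libraries, WT in blue and KO in red. Slc16a1 falls to 4.06 TPM at ZT12 in WT and stays between 18 and 23.5 TPM on average in KO, and the genotypes of Slc16a9 overlap at all 6 times.

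Rhythm was tested in the 8 relatives as a 24-hour cosine fitted to log2(TPM + 0.1), with limma and Benjamini-Hochberg adjustment over all 12874 genes. Of the 8 relatives 1, Slc16a10, was rhythmic in WT at an adjusted p under 0.05, where 13.7% of all genes were. In KO 0 of 8 were rhythmic, where 3.64% of all genes were. The rhythm differed between genotypes in 0 of 8, where 0.629% of all genes did. These counts at the adjusted threshold are near the shares of all genes, and are not a result about this family. At an unadjusted p under 0.05 the counts were 4 of 8 in WT (all genes 29.2%), 2 of 8 in KO (all genes 21.1%) and 3 of 8 for the difference (Slc16a10, Slc16a13 and Bsg; all genes 13.7%). The median peak-to-trough difference of the relatives was 0.43 log2 units in WT and 0.17 in KO, against 0.25 and 0.21 over all genes. No relative had a WT rhythm of the size of that of Slc16a1. Leaving out the libraries labelled KO ZT4 A and KO ZT12 A together gave 3 rhythmic relatives in WT (Slc16a9, Slc16a10 and Bsg), 0 in KO and 0 that differed.

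**Figure D2:**
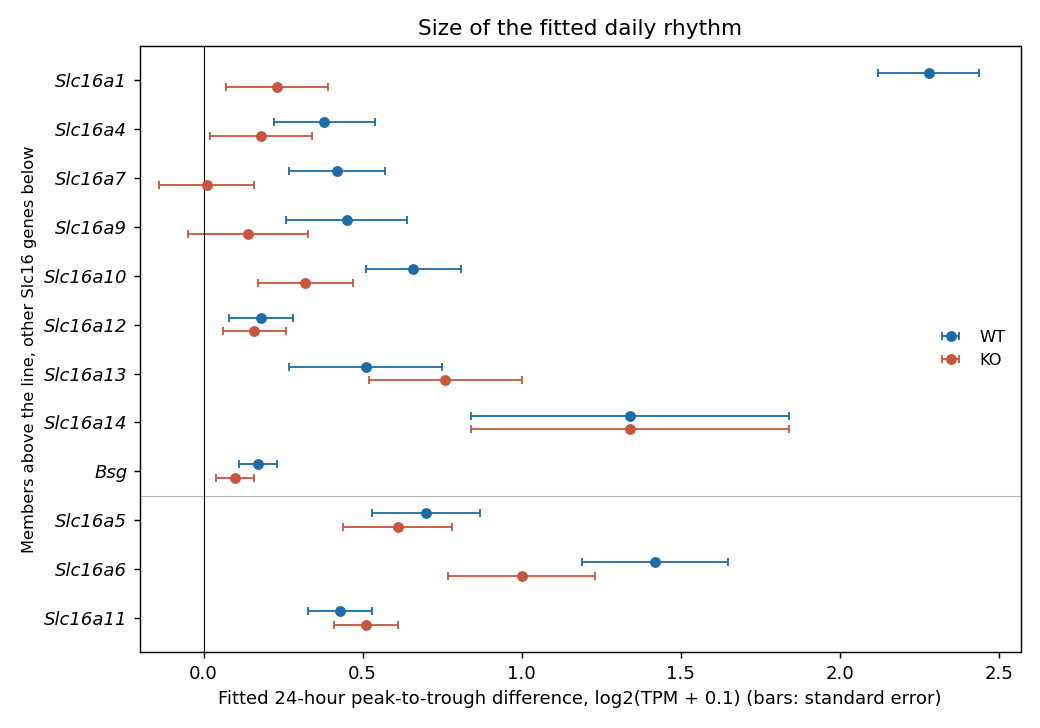
Fitted 24-hour peak-to-trough difference on the log2(TPM + 0.1) scale (horizontal axis, bars are standard errors) for the 9 genes above the line and 3 other Slc16 genes below it, WT in blue and KO in red. Slc16a1 stands at 2.28 in WT and 0.23 in KO, and in the relatives the bars of the genotypes lie close together or overlap.

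Slc16a10 (ENSMUSG00000019838, chromosome 10, 40033532 to 40142258, minus strand), the aromatic amino acid carrier, was the relative most like Slc16a1. Its WT libraries held 11.3 and 10.3 TPM at ZT0, 11 and 8.79 at ZT4, 8.3 and 8.44 at ZT8, 7.84 and 6.41 at ZT12, 8.2 and 7.57 at ZT16, and 10.5 and 12.4 at ZT20. The KO libraries held 15.7 and 11.1 TPM at ZT0, 10.8 and 12.4 at ZT4, 9 and 12.5 at ZT8, 15.3 and 13.3 at ZT12, 15.3 and 12.5 at ZT16, and 13.9 and 12.1 at ZT20. In WT the gene was lowest at ZT12 and ZT16, and at those times and at ZT8 both KO libraries lay above both WT libraries, by ratios of the means of 2, 1.77 and 1.28.

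The WT rhythm of Slc16a10 spanned 0.66 log2 units (SE 0.15, adjusted p 0.0142) with a peak at 23.6 h (SE 0.86), close to the 23.8 h of Slc16a1. In KO its fitted span was 0.32 (SE 0.15, adjusted p 0.363). The difference between these curves spanned 0.76 (SE 0.21) and did not pass the adjusted threshold (p 0.00629, adjusted p 0.174), so a loss of rhythm is not shown for Slc16a10. Its WT rhythm did not pass without the WT ZT12 B library (span 0.58, adjusted p 0.0587) or with time as a 6-level factor (range of the time means 0.68, adjusted p 0.128). Over the 24 libraries the log2 levels of Slc16a1 and Slc16a10 had a Pearson r of 0.82, 0.88 within the 12 WT libraries and -0.06 within the 12 KO libraries, which share time points and the scaling of TPM.

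Slc16a13 (chromosome 11, 70216789 to 70221064, minus strand), a plasma membrane carrier of the same family, had the largest opposite pattern. At ZT0 the KO libraries held 10.3 and 13.3 TPM against 27.4 and 26 in WT, a ratio of 0.441. At ZT12 the order was the other way, with 23.5 and 20.2 TPM in KO against 17.1 and 18 in WT, and at the other 4 times the genotypes overlapped. Its fitted peak lay at 23.2 h in WT (peak-to-trough 0.51, SE 0.24, adjusted p 0.312) and at 11.9 h in KO (0.76, SE 0.24, adjusted p 0.145). The difference curve spanned 1.26 log2 units (SE 0.34, p 0.00555, adjusted p 0.167). Without the library labelled KO ZT4 A, whose 27.7 TPM was the second highest of the KO values, the KO rhythm passed (adjusted p 0.0481) and the difference came to an adjusted p of 0.0609. Without both libraries that stand apart these were 0.0501 and 0.0762. The level averaged over times was -0.18 log2 units in KO (SE 0.14, adjusted p 0.294). Slc16a13 lies 371 bp from Slc16a11 on the opposite strand, and whether the library protocol marked strand is not given in the sources used here.

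Bsg (ENSMUSG00000023175, chromosome 10, 79704491 to 79711969, plus strand) escorts Slc16a1 to the membrane, and its transcript moved far less than that of its cargo. The WT libraries held 345 and 345 TPM at ZT0, 325 and 324 at ZT4, 310 and 312 at ZT8, 321 and 310 at ZT12, 326 and 318 at ZT16, and 340 and 362 at ZT20. The KO libraries held 385 and 366 TPM at ZT0, 341 and 377 at ZT4, 420 and 367 at ZT8, 383 and 382 at ZT12, 392 and 375 at ZT16, and 357 and 361 at ZT20. KO lay above WT at 5 of 6 times and overlapped at ZT20, and the largest ratio of the means, 1.27, was at ZT8. The WT rhythm spanned 0.17 log2 units (SE 0.06, adjusted p 0.0946), the KO rhythm 0.10 (SE 0.06, adjusted p 0.529), and their difference had an adjusted p of 0.223 (p 0.0114). Without the library labelled KO ZT4 A the WT rhythm passed (adjusted p 0.0435).

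The level of each member was compared between genotypes with time of day in the model. Slc16a1 is left out of the counts, since its loss of rhythm chose the set. Of the 8 relatives 4 were higher in KO at an adjusted p under 0.05 (Slc16a4, Slc16a7, Slc16a10 and Bsg), where 50.9% of all genes were, 0 were lower, where 10% of all genes were, and 4 did not pass. In either direction 60.9% of all genes passed, and at an unadjusted p under 0.05, 65% did. The median difference of the 8 relatives was 0.15 log2 units, the same as the 0.15 of all genes. The count of relatives is therefore near the share of all genes that were higher in KO, and is not a result about this family.

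**Figure D3:**
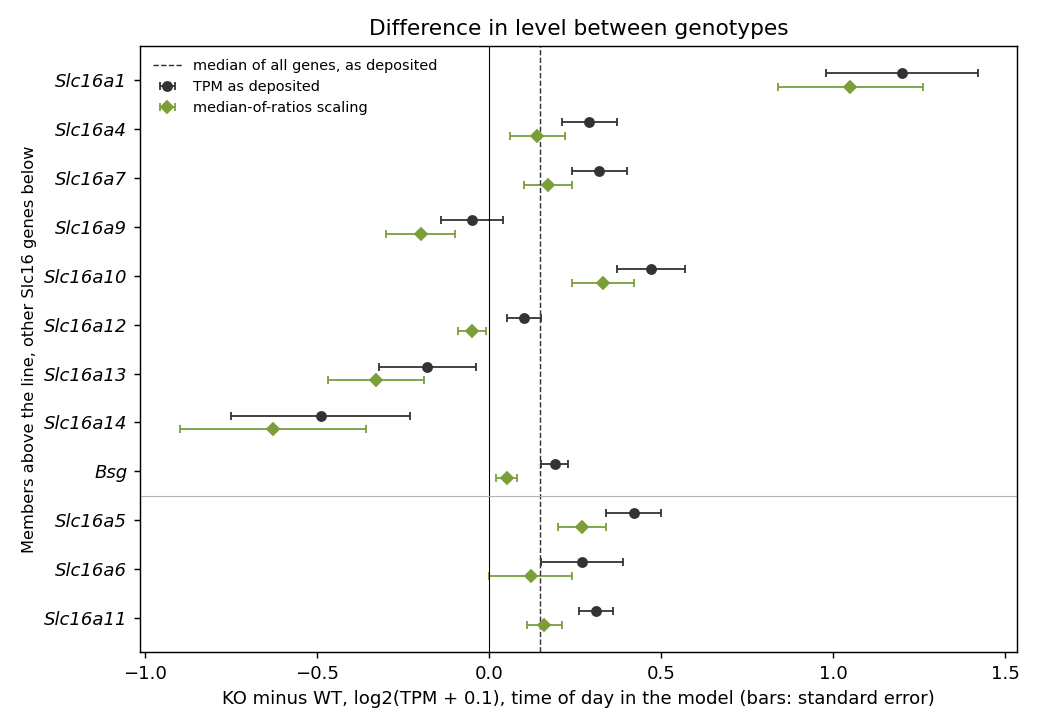
Difference in level, KO minus WT, on the log2(TPM + 0.1) scale (horizontal axis, bars are standard errors), with black circles for TPM as deposited, green diamonds after median-of-ratios scaling and a dashed line at the median of all genes as deposited, 0.148. Slc16a1 stands at 1.20 and 1.05, Slc16a10 at 0.47 and 0.33, and Slc16a12 changes sign from 0.10 to -0.05.

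Slc16a10 rose by 0.47 log2 units (SE 0.10, adjusted p 0.000329), with the KO mean above the WT mean at 6 of 6 times. Slc16a7, a carrier of pyruvate and lactate (chromosome 10, 125219270 to 125389465, minus strand), rose by 0.32 (SE 0.08, adjusted p 0.00165). Its KO libraries held 46.9 and 42.8 TPM at ZT12 against 25.7 and 26.1 in WT, a ratio of 1.73, and 32.2 and 43.8 at ZT4 against 30.4 and 40.6. KO lay above WT at ZT0, ZT8, ZT12 and ZT16 and overlapped at ZT4 and ZT20, so the gap was widest where WT was lowest. The WT rhythm of Slc16a7 spanned 0.42 log2 units (SE 0.15, adjusted p 0.132) and the KO fit 0.01 (adjusted p 0.999), and the difference had an adjusted p of 0.547.

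Slc16a4, on chromosome 3 at 107291230 to 107312115, lies 2.63 Mb from Slc16a1. It rose by 0.29 log2 units (SE 0.08, adjusted p 0.00384). In WT its libraries ran from 30.6 through a median of 39.9 to 51.8 TPM and in KO from 37.8 through 48.1 to 61.6, so the genotypes overlapped widely, and KO lay wholly above WT at 3 of 6 times. Bsg rose by 0.19 (SE 0.04, adjusted p 0.00011). After median-of-ratios scaling, which moves the median difference of all genes to 0.002, 44.3% of genes differed and 22.1% were higher in KO. Slc16a7 (0.17, adjusted p 0.0476) and Slc16a10 (0.33, adjusted p 0.00496) still passed there, and Slc16a1 stood at 1.05. Slc16a4 (0.14, adjusted p 0.154) and Bsg (0.05, adjusted p 0.282) did not. With mitochondrially encoded genes left out and the rest rescaled, all 4 of these relatives passed, with Slc16a4 at 0.22 (adjusted p 0.0195) and Bsg at 0.13 (adjusted p 0.000651), so the calls of Slc16a4 and Bsg depend on which scaling is used.

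**Figure D4:**
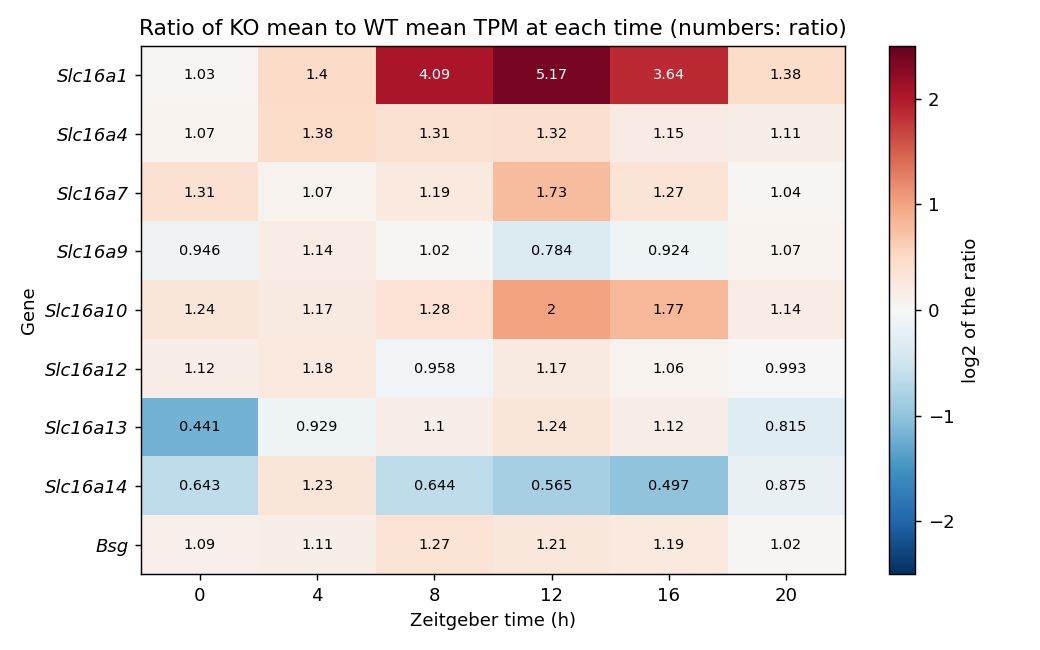
Ratio of the KO mean to the WT mean of TPM for each of the 9 genes (rows) at each zeitgeber time in hours (columns), each mean over 2 libraries, coloured by the log2 of the ratio and printed in the cell. Slc16a1 reaches 5.17 and Slc16a10 2 at ZT12, and Slc16a13 falls to 0.441 at ZT0.

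Slc16a9, Slc16a12, Slc16a13 and Slc16a14 did not pass the level test. Slc16a9 (chromosome 10, 70245100 to 70285968) was highest in WT near the time when Slc16a1 was low, with a time mean of 59.3 TPM at ZT16 and 42.4 TPM at ZT4. Its genotypes overlapped at all 6 times. The lowest of all 24 values, 27.8 TPM, belonged to the library labelled KO ZT12 A, whose partner held 55 TPM. The level difference was -0.05 (SE 0.09, adjusted p 0.641) and turned to 0.03 without that library (adjusted p 0.692). Its WT rhythm, 0.45 log2 units (SE 0.19) with a peak at 14.4 h, had an adjusted p of 0.232 with all libraries and 0.0245 without that one.

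Slc16a12, the creatine carrier (chromosome 19, 34668403 to 34747289, minus strand), varied least among the transporters, with 27.2 through 32.6 to 35.3 TPM in WT and 26.6 through 34.5 to 39.8 in KO. KO lay above WT at 4 of 6 times, by 0.10 log2 units on average (SE 0.05, adjusted p 0.0579), and this sign reversed after median-of-ratios scaling (-0.05, adjusted p 0.422). Its rhythm spanned 0.18 log2 units in WT (adjusted p 0.398) and 0.16 in KO (adjusted p 0.566).

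Slc16a14 (chromosome 1, 84905898 to 84935134, minus strand) varied widely between libraries of the same time. The WT libraries held 25 and 17.9 TPM at ZT0, 16.1 and 5 at ZT4, 14 and 8.48 at ZT8, 20.8 and 12.2 at ZT12, 35.7 and 18.9 at ZT16, and 28.5 and 12.7 at ZT20. The KO libraries held 15.5 and 12.1 TPM at ZT0, 16.9 and 9.09 at ZT4, 2.93 and 11.6 at ZT8, 12.1 and 6.6 at ZT12, 12.6 and 14.5 at ZT16, and 20.8 and 15.3 at ZT20. KO was wholly below WT at ZT0, ZT12 and ZT16, and in WT library A was above library B at every time. The level difference was -0.49 log2 units (SE 0.26, adjusted p 0.115), and -0.63 (adjusted p 0.05, just inside the threshold) without both libraries that stand apart. The fitted rhythm spanned 1.34 log2 units in each genotype with an SE of 0.50, so a span of this size was not separable from the spread between libraries (adjusted p 0.162 in WT and 0.229 in KO).

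Among transcripts with a mean of at least 1 TPM, those of the same gene differed in level in the same direction, by different amounts. The fitted KO spans of Bsg transcripts ran from 0.05 log2 units in Bsg-205 to 0.83 in Bsg-202, which held 11.7% of Bsg TPM. In neither did the rhythm differ between genotypes at the threshold in limma (adjusted p 0.673 and 0.59). Bsg-205, the form with 273 codons, held 86.4% of Bsg TPM and was higher in KO by 0.16 log2 units (SE 0.03, adjusted p 0.000812). The longer Bsg-201, with 389 codons, held 1.34% and was higher by 0.45 (SE 0.11, adjusted p 0.00442). Both transcripts of Slc16a7 code for 484 codons, and Slc16a7-202 with 73.7% of the TPM and Slc16a7-201 with 26.3% were higher by 0.33 (adjusted p 0.00339) and 0.28 (adjusted p 0.0468). Slc16a1, Slc16a10 and Slc16a12 were each listed with 1 transcript. Levels of single transcripts are estimates that divide shared reads.

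Of 5 further Slc16 genes examined beside the set, Slc16a3 (0.444 TPM in WT and 0.552 in KO) and Slc16a8 (0.164 and 0.197) were under the mean of 1 TPM and were not tested. Slc16a5, Slc16a6 and Slc16a11 were rhythmic in WT, where 13.7% of all genes were. Slc16a6 and Slc16a11 were also rhythmic in KO, where 3.64% of all genes were. Slc16a6, which exports ketone bodies in liver, spanned 1.42 log2 units in WT (peak 21.6 h, adjusted p 0.00118) and was also rhythmic in KO (peak 20 h, adjusted p 0.0426). Slc16a11, tied to pyruvate transport, spanned 0.43 in WT (peak 9.33 h, adjusted p 0.0224) and 0.51 in KO (peak 11.5 h, adjusted p 0.0206). Slc16a5 spanned 0.70 in WT (peak 18.4 h, adjusted p 0.02) and 0.61 in KO (adjusted p 0.0852). The difference in rhythm passed in 0 of these 3 genes in limma (all genes 0.629%), and in 0 at an unadjusted p under 0.05 (all genes 13.7%). Slc16a5 (0.42, adjusted p 0.000202) and Slc16a11 (0.31, adjusted p 5.55e-05) were higher in KO, also after median-of-ratios scaling.

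The genes whose log2 level followed Slc16a1 most closely over the 24 libraries were Ndrg1 (Pearson r 0.98), Npas2 (0.96), Dtx4 (0.96), Mmp15 (0.94) and Avpr1a (0.93). Each had a WT peak between 23.3 and 0.23 h and a higher mean level in KO. Ndrg1 ran at 724 TPM in WT and 1296 in KO, and its fitted span fell from 1.78 to 0.29 log2 units. Npas2, a partner of BMAL1, spanned 4.77 log2 units in WT and 0.78 in KO. The closest gene to Slc16a10 was Slc7a8 (r 0.95), then Synpo and Kmt5a (0.93 each). Slc16a7 was closest to Tbc1d24 (0.93), Mospd2 and Slc4a1 (0.89 each), Slc16a4 to Dusp23 (0.85), Gpx8 and Smim24 (0.84 each), and Bsg to Rplp1, Ndufa9 and Ndufa3 (0.96 each), genes of the ribosome and of complex I. These are descriptions over libraries that share genotypes, times and scaling.

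Over all genes 50.9% were higher in KO and 10% lower. Of 11 tested genes that handle aromatic amino acids, a cargo of Slc16a10, or thyroid hormone, 6 were higher, 0 lower and 5 did not pass. The median was 0.49 log2 units (5 higher and 2 lower after median-of-ratios scaling, 8 higher and 0 lower without both libraries that stand apart). With TPM as deposited the share of higher genes is near that of all genes. At the adjusted threshold 4 genes of this list were rhythmic in WT (all genes 13.7%), 0 in KO (3.64%), and 1 differed in rhythm (0.629%). Slc7a8 and Slc3a2 encode the light and heavy chains of a basolateral amino acid exchanger. Slc7a8 held 30.6 and 22.6 TPM in WT at ZT12 and 81.3 and 71.3 in KO, a ratio of 2.87, and rose by 0.86 log2 units overall (SE 0.11, adjusted p 5.02e-06). Slc3a2 rose by 0.63 (SE 0.07, adjusted p 1.11e-06), and for both genes KO lay above WT at 6 of 6 times. Their WT rhythms peaked at 23.5 and 23.1 h (adjusted p 0.0321 and 0.0252), did not pass in KO, and did not differ at the threshold (adjusted p 0.47 and 0.467). Hpd, an enzyme of tyrosine breakdown, rose by 2.38 (adjusted p 6.91e-07), and Slc43a2, an amino acid carrier, by 0.30 (adjusted p 0.0113). Thra, a thyroid hormone receptor, rose by 1.29 (adjusted p 2.3e-07) and was rhythmic in WT (0.72, peak 3.84 h, adjusted p 0.0208). Its rhythm did not pass the test of the difference with all libraries (adjusted p 0.128). It passed without the library labelled KO ZT4 A, and without both libraries that stand apart (adjusted p 0.0185 each).

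Ddc, which decarboxylates aromatic amino acids and makes renal dopamine, was the gene of this list whose rhythm differed between genotypes with all 24 libraries (adjusted p 0.000141). Its WT libraries held 55.1 and 50.1 TPM at ZT0 and 19.6 and 22.2 at ZT16, and its KO libraries 80.9 and 84.4 at ZT0 and 92.8 and 86.6 at ZT16. WT fell to the evening while KO stayed high, and all 12 KO libraries were above all 12 WT libraries. The WT span was 1.40 log2 units with a peak at 2.22 h, and the KO span 0.36. The lowest KO value, 55.6 TPM, was in the library labelled KO ZT4 A.

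**Figure D5:**
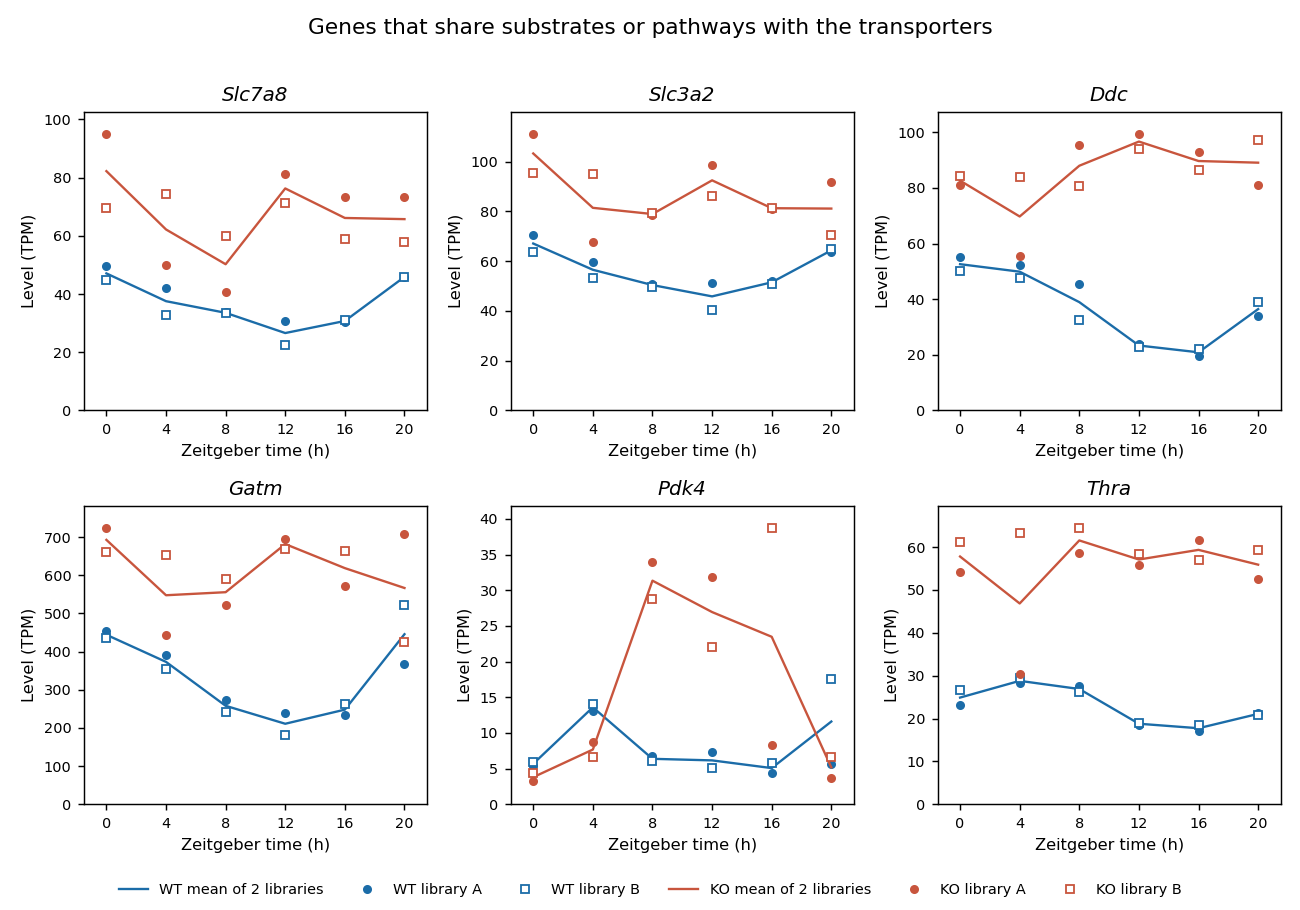
Level in TPM (vertical axes, starting at 0) against zeitgeber time in hours for 6 genes that share cargo or pathways with the transporters, chosen after their values were seen, with symbols and lines as for the transporters. Slc7a8, Slc3a2, Ddc and Gatm fall towards ZT12 to ZT16 in WT and stay higher in KO, and Pdk4 rises in KO to 31.3 TPM at ZT8.

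Among 13 genes of lactate and pyruvate metabolism 7 were higher, 1 lower and 5 did not pass (2 higher and 1 lower after median-of-ratios scaling), with a median of 0.16. Over all genes 50.9% were higher and 10% lower, so the share of higher genes is near that of all genes. At the adjusted threshold 1 gene of this list was rhythmic in WT (all genes 13.7%), 1 in KO (3.64%), and 1 differed in rhythm (0.629%). Besides Ldhb the higher genes were Pck1 (0.64), Pdk1 (0.47), Pdp1 (0.46), Pdk2 (0.21), Pdhb (0.21) and Pdha1 (0.12), most of them parts or regulators of pyruvate dehydrogenase. Pdk2, a kinase that restrains that complex, was rhythmic in WT (0.51 log2 units, peak 8.91 h, adjusted p 0.00214). Ldhd, the mitochondrial D-lactate dehydrogenase, was the lower gene at -1.88 log2 units (SE 0.23, adjusted p 2.74e-06), from 396 TPM ± 61.5 in WT to 123 TPM ± 84 in KO (SD, n = 12). The library labelled KO ZT4 A held 371 TPM, and without it the difference was -2.05. The L-lactate dehydrogenases moved little, with Ldhb at 0.16 (adjusted p 0.00108) and Ldha at 0.05 (adjusted p 0.406). Pdk4, the fasting-induced brake on pyruvate oxidation, was rhythmic in KO (3.24 log2 units, peak 11 h, adjusted p 0.00511) and not at the threshold in WT (0.77, adjusted p 0.531), and the rhythms differed (adjusted p 0.041). Its libraries held 33.9 and 28.8 TPM in KO at ZT8 against 6.75 and 6.01 in WT, and 8.76 and 6.6 TPM in KO at ZT4 against 13.1 and 14.1 in WT. Without the library labelled KO ZT12 A the adjusted p of this difference was 0.0737, and 9 of the 24 fits without 1 library kept it under 0.05.

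Among 6 genes of ketone body and acetate metabolism 1 was higher, 2 were lower and 3 did not pass (1 higher and 3 lower after median-of-ratios scaling, 2 higher and 2 lower without the library labelled KO ZT12 A), against 50.9% higher and 10% lower over all genes. The median was -0.07. Acss1, which activates acetate in mitochondria, was at 77.1 TPM ± 11.3 in WT and 127 TPM ± 31 in KO (SD, n = 12), a log2 difference of 0.70 (SE 0.12). Its adjusted p in limma was 6.22e-05, and KO lay above WT at 6 of 6 times. Acat1 (-0.43, adjusted p 4.49e-05) and Bdh1 (-0.20, adjusted p 0.00798), which act on ketone bodies in mitochondria, were lower. No gene of this list was rhythmic or differed in rhythm at the adjusted threshold in limma. Over all genes 13.7% were rhythmic in WT, 3.64% were in KO and 0.629% differed. At an unadjusted p under 0.05 the counts were 0 in WT (all genes 29.2%), 2 in KO (21.1%) and 1 for the difference (13.7%).

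Of 9 creatine and carnitine genes 4 were higher and 2 lower (3 and 4 after median-of-ratios scaling), with a median of 0.00, against 50.9% higher and 10% lower over all genes. At the adjusted threshold 3 genes of this list were rhythmic in WT (all genes 13.7%), 1 in KO (3.64%), and 0 differed in rhythm (0.629%). Gatm, which makes the precursor of creatine, held 240 and 182 TPM in WT at ZT12 and 694 and 669 in KO, a ratio of 3.23, and rose by 0.94 log2 units (SE 0.14, adjusted p 1.49e-05). Its WT rhythm spanned 1.18 with a peak at 23.7 h (adjusted p 0.000835), its KO span was 0.12, and the difference had an adjusted p of 0.0599. Slc22a5, the carnitine importer, was lower by -0.37 (adjusted p 0.00511) and was rhythmic in KO (1.19, peak 12 h, adjusted p 0.00237). Its relative Slc22a4 was rhythmic in WT (0.73, peak 10.3 h, adjusted p 0.000502) and did not pass in level. The creatine kinases Ckb (0.69, adjusted p 6.95e-06) and Ckmt1 (0.47) and the creatine-making Gamt (0.31) were also higher, and Aldh9a1, an enzyme of carnitine synthesis, was lower (-0.46). The WT rhythm of Ckb spanned 0.82 with a peak at 22.1 h (adjusted p 0.00186) and its KO span was 0.01. The difference had an adjusted p of 0.113 with all libraries, 0.00243 without the library labelled KO ZT4 A and 0.00322 without both libraries that stand apart. In the library labelled KO ZT4 A Ckb stood at 83.9 TPM, and the other KO libraries ran from 113 to 144 TPM.

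Of 6 partner and sodium-coupled carriers 3 were higher and 1 lower (1 and 2 after median-of-ratios scaling), against 50.9% and 10% over all genes. Embigin (Emb), the partner of Slc16a7, rose by 0.36 log2 units (SE 0.06, adjusted p 9.56e-05), Nptn by 0.17 (adjusted p 0.00102) and Slc5a12, a sodium-coupled lactate carrier, by 0.42 (adjusted p 0.0113). Mpc1, a subunit of the mitochondrial pyruvate carrier, was lower by -0.41 (SE 0.06, adjusted p 9.49e-06), while its partner subunit Mpc2 stood at 0.06 (adjusted p 0.338). None of the 6 was rhythmic or differed in rhythm at the adjusted threshold in limma. Over all genes 13.7% were rhythmic in WT, 3.64% were in KO and 0.629% differed. At an unadjusted p under 0.05 the counts were 1 in WT (all genes 29.2%), 2 in KO (21.1%) and 2 for the difference (13.7%).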

How the data were processed

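Polyadenylated kidney RNA was measured in 24 libraries. Per-transcript TPM values were deposited by the authors, made with kallisto 0.42.4 per the submitters' processing notes, which also name the builds mm10 and GRCm38. The index is not given in the sources used here. Of 88198 transcripts, 86119 were matched to genes of GENCODE M21 (GRCm38) and summed per gene, and 2079 (1.35% to 2.24% of TPM) were left out. No count or depth can be recovered from TPM.

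Genes whose mean reached 1 TPM were tested on log2(TPM + 0.1) with limma 3.58.1 in R 4.3.3 (lmFit, eBayes with trend and robust options), Benjamini-Hochberg adjustment over all 12874 genes and a threshold of 0.05. Level was the genotype coefficient, with the 6 times as levels of a factor. Rhythm was the moderated F statistic of a 24 h cosine and sine per genotype, and the difference in rhythm that of the genotype difference in both terms. These fits used 1 spread per gene shared by both genotypes, while the alternative fits of 1 genotype alone used the spread of that genotype. The fits were tested on simulated data.

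Groups came from the labels alone. The count of members that differ in level was planned over all members and is given without Slc16a1, which chose the set. The members, the gene lists and the rules were chosen with earlier results of these data known. The text names all members, the other Slc16 genes examined, genes of the lists that passed one of the 4 tests, the 5 genes most correlated with Slc16a1 and the 3 most correlated with each relative that passed a test. Other genes were named after their values were seen, and some genes are not reported here. No 2 libraries were identical. Alternatives covered the pseudocount (1 and 0.01), the filter on low values, scaling, the replicate letter, transcript type, the model and each library left out. Leaving out mitochondrial genes, testing transcripts singly and leaving out 2 libraries together were added after seeing the data.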

Additional observations from a re-analysis of the deposited data

Results flagged for a closer look

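Ddc and Pdk4 were the 2 genes of the pathway lists whose rhythm differed between genotypes by a test of the difference itself with all 24 libraries. For Ddc the adjusted p was 0.000141, and it passed in 24 of 24 fits without 1 library (adjusted p 4.66e-05 to 0.000556) and in 11 of 11 other settings. For Pdk4 the adjusted p was 0.041, and it passed in 9 of 24 fits without 1 library (adjusted p 0.0213 to 0.09) and in 8 of 11 other settings. Ckb and Thra passed this test in 1 of 24 fits without 1 library, the fit without KO ZT4 A (adjusted p 0.00243 and 0.0185), and again without both libraries that stand apart (0.00322 and 0.0185). Slc22a4 passed in 1 of 24 such fits and in 2 of 11 other settings, and Gatm in 2 and 0. The Pdk4 level in KO at ZT16 was 8.27 TPM in library A and 38.7 TPM in library B.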

How the results depend on the processing

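The count of relatives that differed in level, 4, was 2 after median-of-ratios scaling (Slc16a7 and Slc16a10) and 4 to 5 with each library left out in turn. The count of relatives rhythmic in WT, 1, was 4 when the WT libraries were fitted alone (Slc16a9, Slc16a10, Slc16a13 and Bsg), 0 with time as a 6-level factor, 3 without both KO libraries that stand apart, and 0 to 2 with each library left out. It was 0 without WT ZT12 B, and 2 without KO ZT4 A, KO ZT8 A or KO ZT12 A. The count rhythmic in KO was 0 in all settings except 1 (Slc16a13) without KO ZT4 A, and the count that differed in rhythm was 0 in all settings run. Leaving out KO libraries did not change the WT spans of Slc16a9 (0.45) and Bsg (0.17), because the genotypes share only the spread per gene in these fits. Beyond this, the cause of these changes was not tested. With the replicate letter as a replicate block the counts were 4, 1, 0 and 0, and over all genes 7873 differed in level. The block was shared by both genotypes. Over 66 pairs of groups from both genotypes the correlation of A minus B ran from -0.323 to 0.338 (median 0.0223), and 21 pairs were over 0.1. A shift between the letters within WT alone was not tested, and Slc16a14 was higher in A than in B at every WT time. Of 1136 values of single relatives under alternatives, 1114 kept their side of the threshold and, for level, their direction. In 4 the value no longer passed, in 15 it came to pass, and 3 reversed in level. Direction was compared for level only, and the values that kept their side include results that did not pass in either fit. The reversals were the level of Slc16a9 (0.03 without KO ZT12 A and 0.04 without both libraries, and -0.09 to 0.03 with each library left out) and of Slc16a12 (-0.05 after median-of-ratios scaling). Depth is unknown, and 2 libraries per genotype and time limit what can be called.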
